A study of Mus musculus with 24 samples.

Results

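Heat shock and DnaJ chaperone genes were followed across 24 RNA-seq libraries of mouse primary cortical astrocytes. Membership was set by symbol: genes named Hsp followed by a, b, d, e, h or a digit, and genes named Dnaja, Dnajb or Dnajc followed by a digit. Of 32719 genes in the count tables, 75 symbols matched, and the 63 with a mean of at least 1 CPM (the counts of a gene as a share of the gene counts of its library on the usual CPM scale) over all libraries were kept. Just above that limit were Hspb2 and Dnajc12, with a mean of 1.89 and 2.97 CPM, and just below it were Dnajc6 and Hspb9, with 0.838 and 0.563 CPM. All 63 members passed the expression filter that left 15599 genes for testing.

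The cells came from the cortices of newborn pups with a floxed insulin receptor gene. All cultures were infected with adenovirus and used 5 days later. The IRflox groups received a virus for GFP alone and the IRKO groups a virus for a Cre and GFP fusion, so the deletion and the Cre virus go together and cannot be told apart. After overnight serum starvation in medium with bovine serum albumin, each genotype was treated for 6 h with vehicle, 100 nM insulin or 100 nM IGF-1, which made 6 groups of 4 libraries. It is not stated in the labels if each library stands for its own culture; p-values below therefore rest on library-to-library spread alone, and this spread may be technical. Gene counts per library ran from 15429688 to 19010986, and values are given as CPM. The deleted gene, Insr, stood at 58.8 to 66.9 CPM in the IRflox libraries with vehicle and at 37.7 to 43.7 CPM in the IRKO libraries with vehicle, so IRKO libraries kept a part of its signal. Astrocyte markers (10 of the 11 listed were tested) summed to 4131 to 4983 CPM in all libraries, led by Slc1a3 and Aqp4. Markers of other cell types were present too. Over all libraries, summed levels were 991 to 1437 CPM for microglia (13 of 13 markers tested), 283 to 361 CPM for fibroblasts and mural cells (7 of 8), 243 to 435 CPM for the oligodendrocyte lineage (7 of 9), 75.3 to 123 CPM for neurons (6 of 9, led by Stmn2) and 6.01 to 11.2 CPM for endothelium (4 of 6). Rbfox3 and Snap25 of neurons and Cldn5 and Cdh5 of endothelium were not tested, with no more than 7 reads in any library.

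Heat shock proteins are chaperones that bind unfolded or client proteins. HSP70 proteins work in cycles of ATP hydrolysis that are started by J proteins (the Dnaj genes) and reset by nucleotide exchange factors such as HSP110, and clients can be passed on to HSP90. Cytosolic members are classic targets of heat shock factor 1 (HSF1), whereas chaperones of the endoplasmic reticulum are induced through the unfolded protein response. Insulin and IGF-1 act through related receptors and raise protein synthesis, which is a major source of chaperone clients.

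Together the 63 genes held 0.943% of all gene counts in IRflox libraries with vehicle. Their summed level was 9028 to 9965 CPM there, 12240.0 to 12460.0 CPM with insulin and 12075 to 12507 CPM with IGF-1. In IRKO libraries it was 8568 to 8685 CPM with vehicle, 10885 to 11379 CPM with insulin and 11265 to 11597 CPM with IGF-1. Every treated library of a genotype lay above every vehicle library of that genotype, and under each treatment every IRKO library lay below every IRflox library. In RNA from whole cultures, fewer cells of a type and less RNA per cell cannot be told apart.

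**Figure D1:**
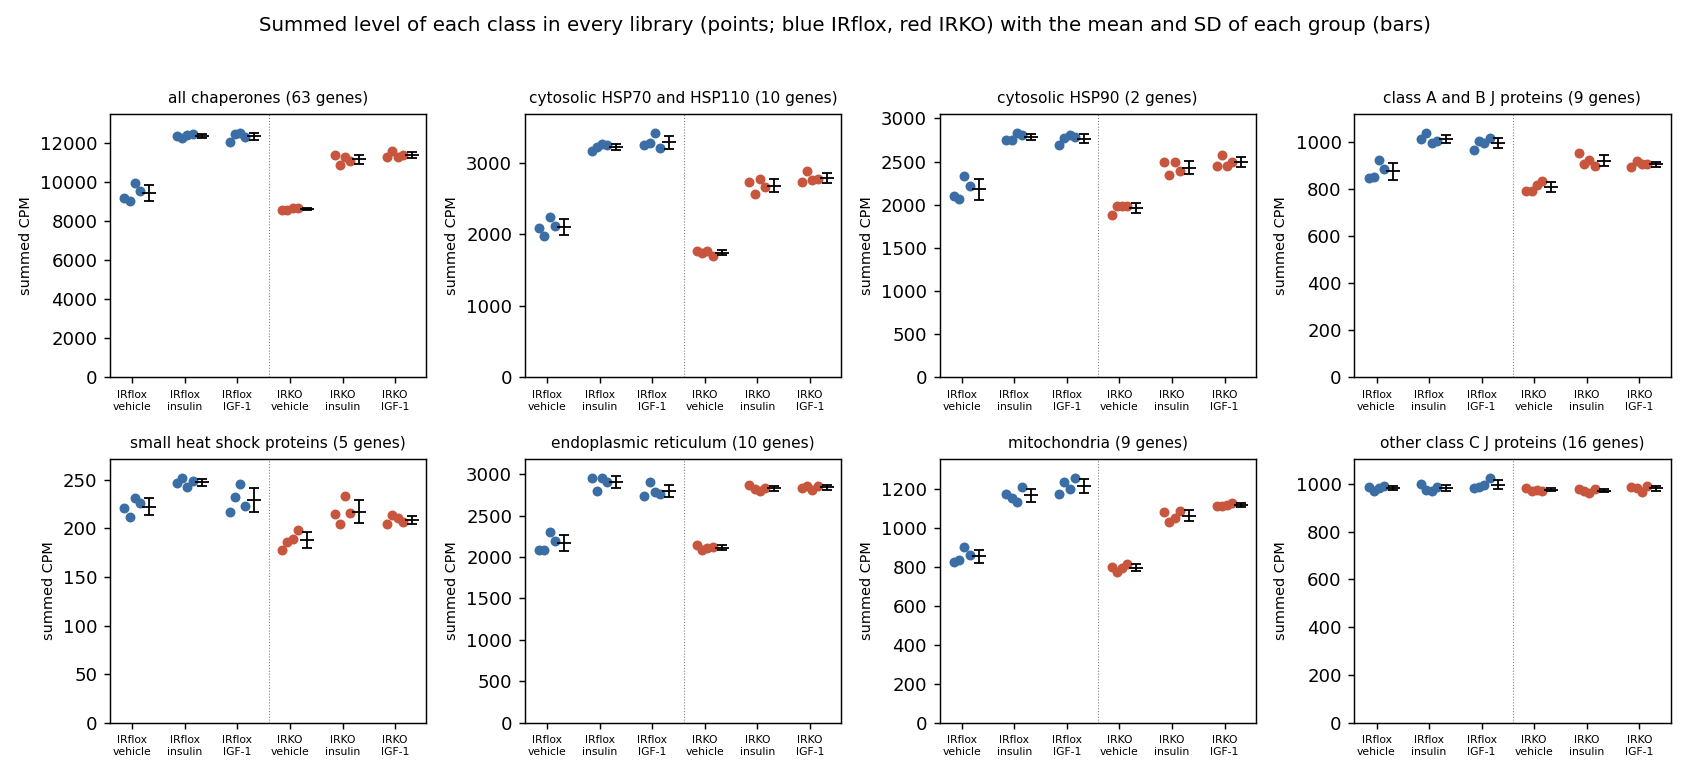
Summed level (CPM, linear axes from 0) of all 63 chaperone genes and of 7 role classes in each library. Points are libraries (blue IRflox, red IRKO) and bars are the mean and SD of 4 libraries. The cytosolic HSP70, HSP90, class A and B J protein, endoplasmic reticulum and mitochondrial classes are higher with either ligand. Small heat shock proteins overlap with vehicle for IGF-1 in IRflox, and the other class C J proteins stay between 962 and 1023 CPM.

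Genes were called higher or lower at an adjusted p under 0.05 by the quasi-likelihood test of edgeR, p-values being adjusted over the 15599 genes by the Benjamini-Hochberg method; "rose", "fell", "higher" and "lower" are used below for genes that passed it. Insulin in IRflox astrocytes raised 29 of 63 members and lowered 8, where 24.3% of all genes tested were higher and 21.4% lower. For IGF-1 in IRflox the counts were 31 and 9 members, against 26.4% and 24.4% of all genes. In IRKO astrocytes insulin raised 28 members and lowered 6 (24.7% and 21.7% of all genes), and IGF-1 raised 30 and lowered 9 (26.9% and 25.1% of all genes). The share of members called higher was 46.0%, 49.2%, 44.4% and 47.6% in these 4 comparisons, and the share called lower was 12.7%, 14.3%, 9.52% and 14.3%. The median log2 fold change of the members was 0.13, 0.11, 0.14 and 0.14, beside a median within 0.01 of 0 over all genes. Because both ligands were compared with the same vehicle libraries within a genotype, their counts are not independent of each other.

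Between genotypes the calls ran the other way. IRKO libraries had 0 higher and 14 lower members with vehicle (3.76% and 4.1% of all genes), 0 higher and 16 lower with insulin (4.94% and 5.53%), and 0 higher and 15 lower with IGF-1 (3.62% and 3.15%). At an unadjusted p under 0.05, edgeR put 1, 3 and 1 members higher in IRKO in these comparisons, and DESeq2 called 0 higher at an adjusted p under 0.05 in each. With library sizes left unscaled, and with no expression filter, 1 member was called higher with vehicle in IRKO. For insulin, 771 of all genes were higher and 863 lower in IRKO, and with library sizes left unscaled this split became 942 and 698, with 0 members higher and 15 lower. Microglial markers moved with genotype: their summed level with vehicle was 1145 to 1217 CPM in IRflox and 1411 to 1437 CPM in IRKO, with 10 of 13 markers called higher in IRKO, and 8 and 6 of 13 were called higher with insulin and IGF-1. Their part in the chaperone differences was not tested. In each of the other marker lists, 0 to 3 markers were called higher and 0 to 2 lower between genotypes. The lowest log2 fold change of a fibroblast or mural marker in IRKO was -1.44, -2.15 and -1.73 with vehicle, insulin and IGF-1. Of these 7 markers, 2, 1 and 1 were called lower and 0, 0 and 1 higher. The part of these lists was not tested either. Marker lists also moved with ligand. In IRflox the microglial sum was 991 to 1064 CPM with insulin and 1034 to 1075 CPM with IGF-1, and 9 and 6 of 13 markers fell. The oligodendrocyte lineage sum was 243 to 266 CPM with vehicle, 320 to 356 CPM with insulin and 364 to 393 CPM with IGF-1; of 7 markers, 3 rose and 1 fell with insulin and 2 rose and 2 fell with IGF-1. The neuronal sum was 83.4 to 95.1 CPM with vehicle, 108 to 114 CPM with insulin and 112 to 123 CPM with IGF-1; of 6 markers, 3 rose and 1 fell with insulin and 2 rose and 0 fell with IGF-1. The astrocyte sum was 4503 to 4785 CPM with vehicle, 4470 to 4748 CPM with insulin and 4131 to 4268 CPM with IGF-1; of 10 markers, 4 rose and 3 fell with insulin and 2 rose and 6 fell with IGF-1. In IRKO, insulin and IGF-1 lowered 11 and 10 of 13 microglial markers and raised 0. Of 10 astrocyte markers there, 4 rose and 4 fell with insulin and 2 rose and 5 fell with IGF-1. Of 7 oligodendrocyte lineage markers, 2 rose and 1 fell with insulin and 3 rose and 2 fell with IGF-1. Of 6 neuronal markers, 2 rose and 2 fell with insulin and 2 rose and 1 fell with IGF-1. The part of these markers in the ligand responses was not tested.

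**Figure D2:**
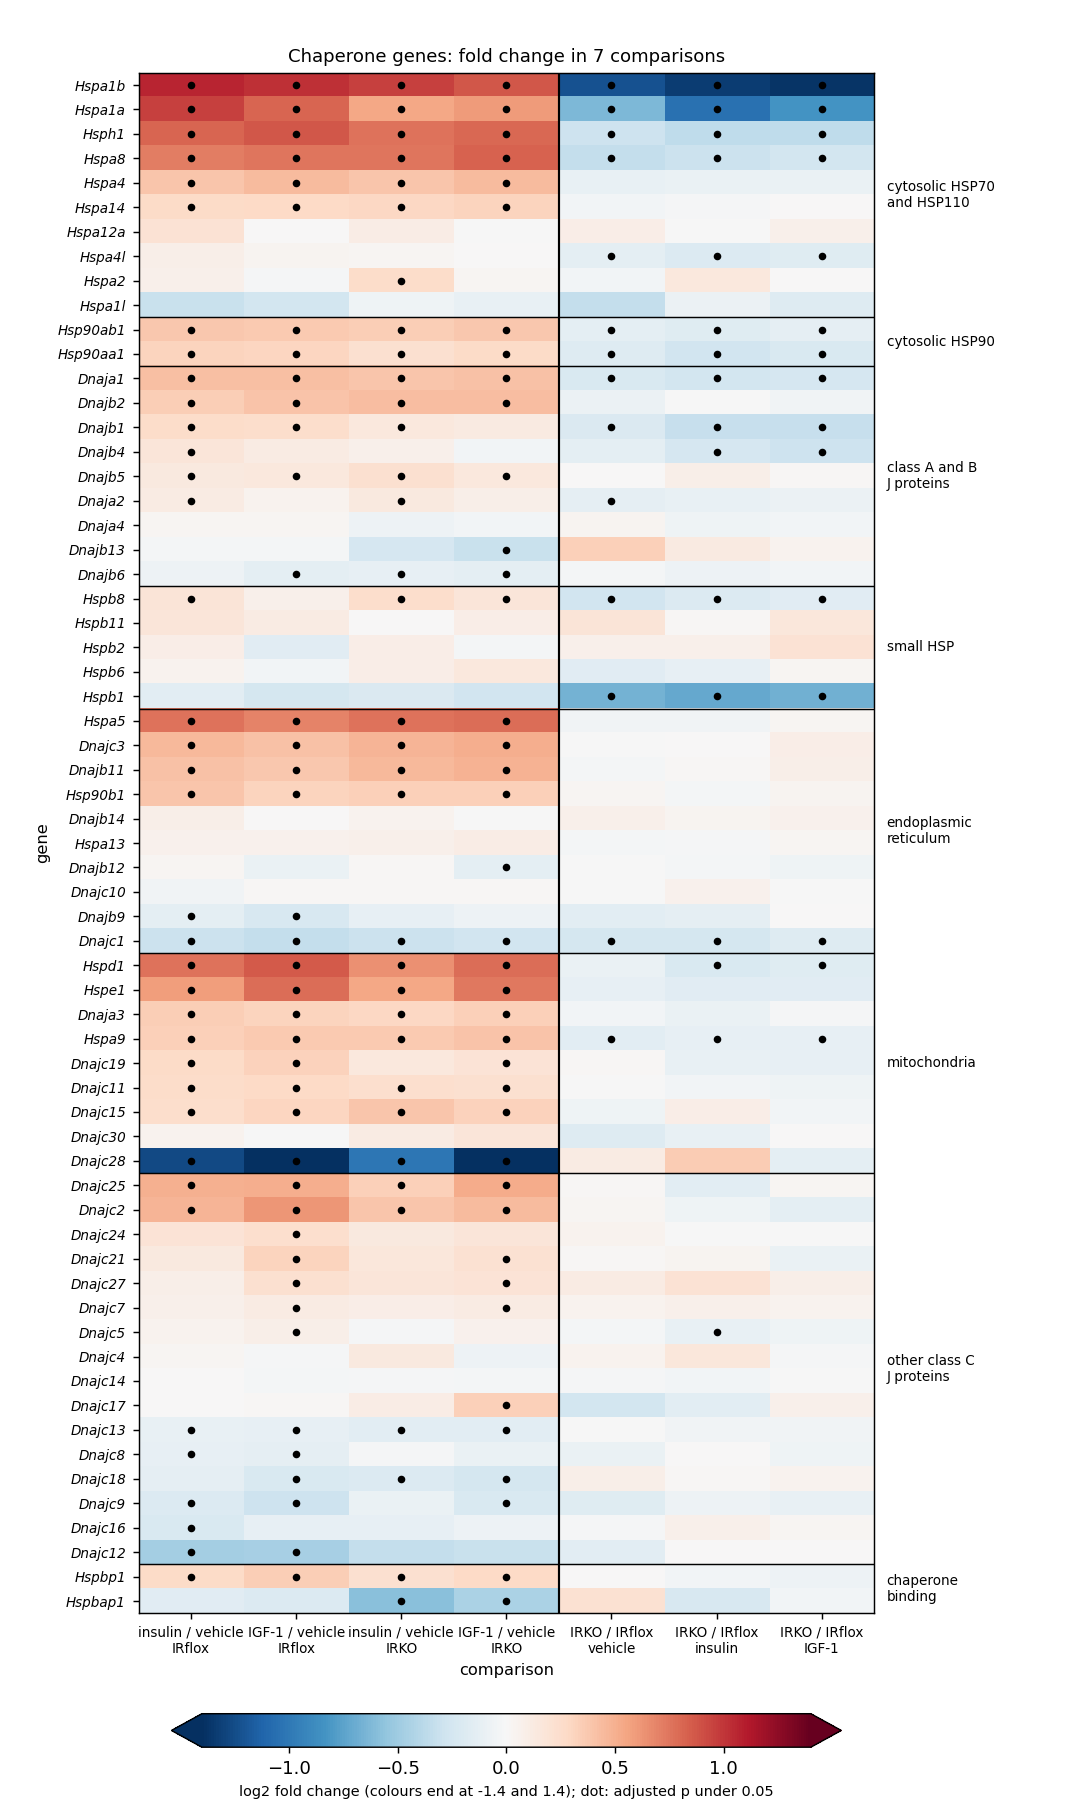
Log2 fold change (colour; red higher, blue lower, ends of the scale at -1.4 and 1.4) of the 63 chaperone genes, in rows by role class, for 4 comparisons of a ligand with vehicle and 3 of IRKO with IRflox. Dots mark an adjusted p under 0.05; 24 genes carry a dot and red in all 4 ligand columns, and the IRKO columns carry dots only on blue.

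The calls overlapped between comparisons that share no library. Of the 29 members raised by insulin in IRflox, 27 (93.1%) were also raised in IRKO, which is 96.4% of the 28 there. Of the 31 raised by IGF-1 in IRflox, 28 (90.3%) were raised in IRKO, which is 93.3% of 30. Of the members lowered by insulin, 3 were shared (37.5% of the 8 in IRflox, and 3 of the 6 in IRKO), and of those lowered by IGF-1, 6 (66.7% of 9 in each). In all 4 ligand comparisons 24 members were higher and 3 (Dnajc1, Dnajc13 and Dnajc28) were lower, and 0 were called in opposite directions. The same overlaps over all genes tested are not given here, so these shares cannot be read as particular to the chaperone genes. The response itself was not found to differ between genotypes. In the test of the difference edgeR called 0 of 63 members for insulin and 0 for IGF-1 (0% of all genes in each). DESeq2 also called 0 and 0. An unadjusted p under 0.05 was reached by 2 and 3 members with either tool. In edgeR these were 3.2% and 4.8% of members, beside 5.4% and 5.3% of all genes. The differences in response ranged on the log2 scale from -0.43 (Hspbap1) to 0.25 (Hspa1l) for insulin and from -0.28 (Dnajb13) to 0.32 (Dnajc17) for IGF-1, with a median standard error of 0.07 in each.

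**Figure D3:**
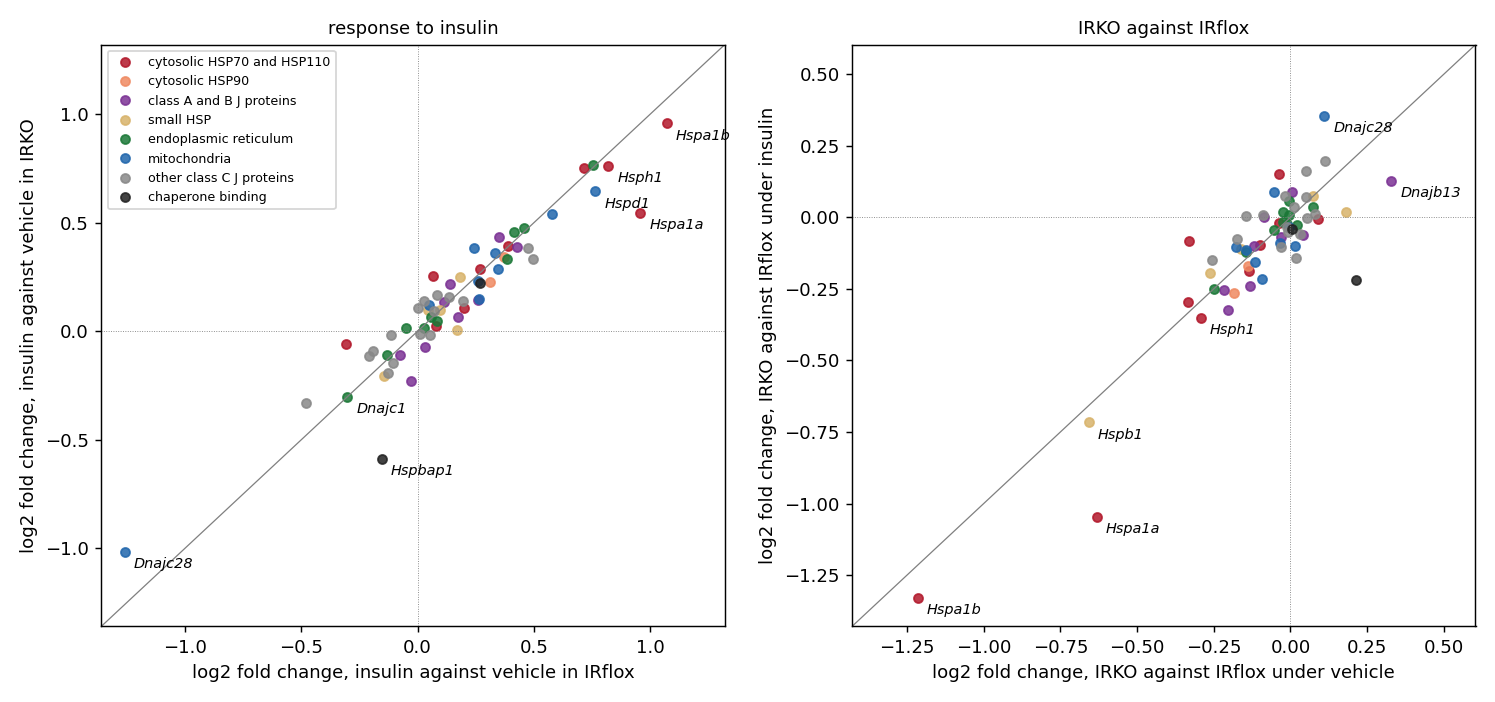
Left: log2 fold change with insulin in IRflox (x axis) against that in IRKO (y axis). Right: log2 fold change of IRKO against IRflox under vehicle (x axis) and under insulin (y axis). Each point is 1 of 63 chaperone genes, coloured by class, the grey line marks equal values, and the 2 axes of a panel share no library; most points lie near the line, with Hspa1b, Hspa1a and Hspb1 farthest below 0 on the right.

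Promoter windows (250 bases before to 50 after a start site, RefSeq, GRCm38.p6) were at hand for 51 of the 63 members and were searched on both strands; Hspa8, Hspa9, Hsp90aa1 and Hsp90ab1 are among the other 12. Those that hold a heat shock element or an endoplasmic reticulum stress element are shown here, because these are known elements of the heat shock and unfolded protein responses. The heat shock element was searched as GAANNTTCNNGAA (TTCNNGAANNTTC on the other strand), and it was found in 4 of 51 members (7.84%) and in 0.662% of all 27025 genes with a window. This string is 1 strict form of the binding motif of HSF1. Capitals mark the match in each site, written 5′ to 3′ on the strand of the gene.
Hspe1: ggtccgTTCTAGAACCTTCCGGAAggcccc
Hsph1: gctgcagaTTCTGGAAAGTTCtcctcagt
Dnajb6: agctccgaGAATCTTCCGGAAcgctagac
The Hspe1 site (chr1:55088053-55088082, plus strand) holds 2 overlapping matches. Hspd1 lies head to head with Hspe1 on the other strand, and the match in its window is this same site. The Hsph1 site is at chr5:149636280-149636308 on the minus strand and the Dnajb6 site at chr5:29735844-29735872 on the plus strand. The Hsph1 match lies after the start site, from base 15 or 36 depending on the window, while the matches of Hspe1, Hspd1 and Dnajb6 lie before theirs. Hspd1, Hspe1 and Hsph1 rose with both ligands in both genotypes, whereas Dnajb6, a J protein that holds back aggregation, fell with IGF-1 in IRflox and with either ligand in IRKO.

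The endoplasmic reticulum stress element was searched as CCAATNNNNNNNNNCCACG and its reverse complement, and was found in 3 of 51 members (5.88%) and in 0.137% of all genes.
Hspa5: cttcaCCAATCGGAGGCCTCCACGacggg
Dnajc3: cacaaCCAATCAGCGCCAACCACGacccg
Hsp90b1: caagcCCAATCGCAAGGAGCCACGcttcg
Hsp90b1: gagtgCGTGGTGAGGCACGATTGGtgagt
The Hspa5 site lies at chr2:34772020-34772048 (plus strand), the Dnajc3 site at chr14:118937822-118937850 (plus strand), and those of Hsp90b1 at chr10:86705633-86705661 and chr10:86705528-86705556 (minus strand). All 3 genes rose in the 4 ligand comparisons, and none was called different between genotypes. Of the 24 members higher in all 4 ligand comparisons, 18 had a window, and each of the 2 elements was in 3 of them (16.7%). Of the 13 members lower in IRKO under all 3 treatments, 9 had a window; the heat shock element was in 1 of them, Hsph1 (11.1%), and the endoplasmic reticulum stress element in 0. Of the 46 members lower in IRKO under none, 39 had a window, with the heat shock element in 2 (5.13%) and the endoplasmic reticulum stress element in 3 (7.69%). The windows of Hspa1a, Hspa1b, Dnajb1 and Hspb1 held neither string of letters. Looser forms of the elements were not searched, so a window without a match may still hold an element. The E-box CACGTG was in 7 members (13.7%, against 8.09% of all genes), and the forkhead motif GTAAACA in 2 (3.92%, against 4.05%). A match is a stretch of letters and not a measured binding site.

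Cytosolic HSP70 and HSP110 genes (10 members) included the largest rise of any member. Insulin raised 6 of 10 in IRflox and 7 in IRKO, IGF-1 raised 6 in each, none was lowered, and 5 of 10 were lower in IRKO under each treatment. Hspa8, the constitutive HSC70, was the most abundant of them at 329.8 RPKM (CPM per kilobase of exon) in IRflox with vehicle. In IRflox it stood at 1393, 1304, 1549 and 1428 CPM with vehicle, 2289, 2329, 2361 and 2344 with insulin, and 2359, 2381, 2492 and 2296 with IGF-1. IRKO libraries held 1143, 1118, 1154 and 1089.8 CPM with vehicle, 1953, 1794, 1987 and 1856 with insulin, and 1940.3, 2065, 1981 and 1980.0 with IGF-1. No treated library overlapped the vehicle libraries, and the genotypes did not overlap under any treatment. The log2 fold change was 0.72 ± 0.04 (SE; 1.64-fold, adjusted p = 1.70e-18 by edgeR) for insulin in IRflox and 0.75, 0.75 and 0.82 for IGF-1 in IRflox and insulin and IGF-1 in IRKO. IRKO against IRflox gave -0.33 ± 0.04, -0.30 and -0.26 with vehicle, insulin and IGF-1.

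Hsph1 (HSP110), a nucleotide exchange factor for HSP70, had the same pattern. Its level in IRflox was 108, 96.7, 117 and 102 CPM with vehicle, 182, 189.8, 189.7 and 187 with insulin, and 182, 192, 205 and 192 with IGF-1. Its IRKO levels were 80.7, 89.1, 88.7 and 87.3 CPM with vehicle, 148, 143, 149 and 146 with insulin, and 148, 152, 149 and 154 with IGF-1. Groups were separate by treatment and by genotype in every such comparison. The log2 fold change was 0.82 ± 0.044 with insulin and 0.86 with IGF-1 in IRflox (edgeR adjusted p = 3.43e-19 and 4.30e-20), and -0.29, -0.35 and -0.36 for IRKO against IRflox with vehicle, insulin and IGF-1. Hspa4, another member of the HSP110 family, rose with ligand but did not pass the test between genotypes. It stood in IRflox at 288, 289, 303 and 286 CPM with vehicle, 367, 376, 382 and 402 with insulin, and 393, 384, 400.1 and 407 with IGF-1. In IRKO the values were 278, 271, 271 and 269 CPM with vehicle, 362, 344, 365 and 356 with insulin, and 366, 384, 363 and 368 with IGF-1. Ligand and vehicle libraries did not overlap, with log2 fold changes of 0.39, 0.44, 0.39 and 0.44; the genotypes overlapped only with IGF-1, and their difference was -0.10, -0.10 and -0.10 (edgeR adjusted p = 0.0768, 0.0682 and 0.0825).

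The stress-inducible HSP70 genes Hspa1a and Hspa1b lie close together on chromosome 17 (34969190 to 34972156 and 34956436 to 34959238, minus strand, mm10). They are nearly identical copies, so the division of reads between them is uncertain, and 19.0% of the Hspa1a exon length is shared with Gm20481. Both were low in these cultures. Hspa1b in IRflox was at 12.5, 9.85, 12.7 and 11.8 CPM with vehicle, 25.1, 26.8, 24.6 and 22.2 with insulin, and 22.7, 24.2, 26.6 and 22.1 with IGF-1. In IRKO it was at 4.16, 6.96, 4.37 and 4.65 CPM with vehicle, 8.43, 10.7, 9.99 and 10.2 with insulin, and 10.2, 8.86, 9.14 and 8.63 with IGF-1. It had the largest rise with ligand and the largest deficit in IRKO among members: 1.07 ± 0.10 with insulin in IRflox (2.10-fold, edgeR adjusted p = 6.49e-12), 1.03 with IGF-1, and -1.22 ± 0.12, -1.33 ± 0.10 and -1.38 ± 0.10 for IRKO against IRflox (with insulin 0.398 of the IRflox level, edgeR adjusted p = 2.05e-12). Hspa1b in IRKO libraries with insulin, 8.43 to 10.7 CPM, overlapped that in IRflox libraries with vehicle, 9.85 to 12.7 CPM.

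Hspa1a in IRflox was at 5.63, 7.23, 6.26 and 6.74 CPM with vehicle, 13.8, 14.2, 12.4 and 9.88 with insulin, and 11.3, 11.9, 11.002 and 11.1 with IGF-1. IRKO libraries held 4.22, 3.53, 4.27 and 4.65 CPM with vehicle, 4.83, 7.25, 5.77 and 6.53 with insulin, and 6.43, 5.49, 5.69 and 7.65 with IGF-1. Every ligand library was above the vehicle libraries of its genotype, and every IRKO library below the IRflox libraries of its treatment. Log2 fold changes were 0.96 and 0.81 in IRflox and 0.54 and 0.60 in IRKO, and -0.63, -1.04 and -0.84 between genotypes. The smaller insulin response of Hspa1a in IRKO had an unadjusted p of 0.0337 and an adjusted p of 0.889 in edgeR. With these copies and 3 further members with more than 20% of exonic sequence inside another gene (Dnaja4, Dnajc30 and Hspb2) set aside, 27 of 58 members rose and 8 fell with insulin in IRflox, and 12, 14 and 13 were lower in IRKO.

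Of the remaining HSP70 genes, Hspa14 rose in all 4 ligand comparisons (0.27 with insulin in IRflox), Hspa2 rose with insulin in IRKO (0.25, beside 0.07 in IRflox, where it did not pass; adjusted p of the difference 0.922 in edgeR), and Hspa12a and Hspa1l were called in none. Hspa4l was not called with either ligand (log2 0.01 to 0.08) but was lower in IRKO under all 3 treatments (-0.14, -0.19 and -0.17).

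**Figure D4:**
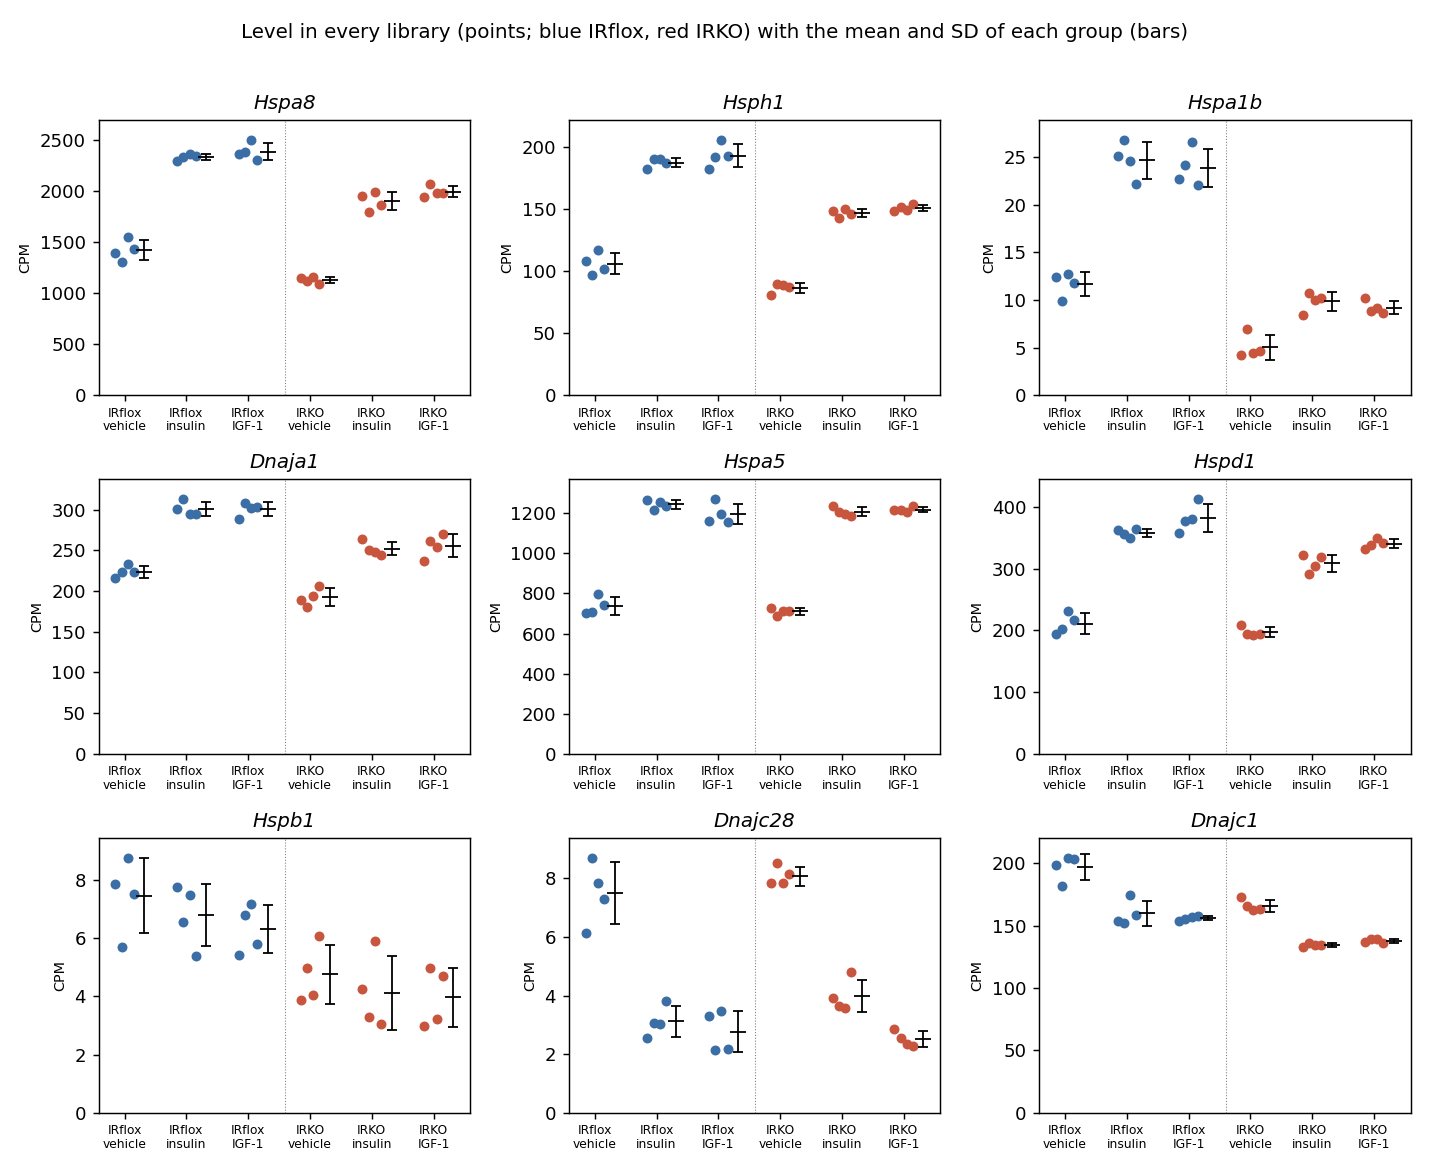
CPM (linear axes from 0) of 9 chaperone genes in each of the 24 libraries (points; blue IRflox, red IRKO), with the mean and SD of each group of 4 (bars). Hspa8, Hsph1, Hspa1b and Dnaja1 are higher with ligand and lower in IRKO, Hspa5 is higher with ligand and overlaps between genotypes, Hspb1 is lower in IRKO without a ligand response past the threshold, and Dnajc28 and Dnajc1 are lower with ligand, Dnajc1 also in IRKO.

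Both cytosolic HSP90 genes rose with either ligand and were lower in IRKO under every treatment. Hsp90ab1, the constitutive form, was the member with the highest level per length, 507 RPKM in IRflox with vehicle. In IRflox it was at 1473, 1423, 1639 and 1543 CPM with vehicle, 1961, 1960.2, 1984 and 1969 with insulin, and 1896, 1973, 1974 and 1967 with IGF-1. Its IRKO levels were 1316, 1401, 1413 and 1388 CPM with vehicle, 1803, 1696, 1798 and 1705 with insulin, and 1779.8, 1832, 1763 and 1795 with IGF-1. Vehicle and ligand groups did not overlap, nor did the genotypes, and log2 fold changes were 0.37, 0.36, 0.34 and 0.38 with ligand and -0.14, -0.17 and -0.12 between genotypes. The vehicle difference missed the threshold in a fit of those groups alone (-0.14), without IRflox vehicle replicate 3 (-0.10) and without IRKO vehicle replicate 1 (-0.12), and the IGF-1 difference missed it when any library of these groups other than IRflox replicate 1 and IRKO replicate 2 was left out (-0.12 to -0.13).

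Hsp90aa1, the stress-inducible HSP90, was at 168 RPKM in IRflox with vehicle. Its level in IRflox was 632, 638, 694 and 672 CPM with vehicle, 793, 795, 846 and 833 with insulin, and 795, 802, 836 and 819 with IGF-1. In IRKO the values were 559.7, 586, 574 and 601 CPM with vehicle, 693, 651, 693 and 682 with insulin, and 666, 744, 688 and 702 with IGF-1. Here too neither treatments nor genotypes overlapped, and log2 fold changes were 0.31, 0.30, 0.23 and 0.27 with ligand and -0.18, -0.26 and -0.22 between genotypes (edgeR adjusted p = 9.26e-04, 3.61e-06 and 1.53e-04).

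Among the 9 class A and B J proteins of the cytosol and nucleus, insulin raised 6 in IRflox and 5 in IRKO, IGF-1 raised 4 and 3, up to 2 fell, and 3 were lower in IRKO under each treatment. Dnaja1, a partner of HSC70, was the clearest. In IRflox it stood at 216, 223, 233 and 223 CPM with vehicle, 301, 313, 295 and 295 with insulin, and 289, 308, 302 and 304 with IGF-1. In IRKO it was at 189, 180.3, 195 and 206 CPM with vehicle, 264, 251, 249 and 245 with insulin, and 237, 262, 254 and 270.3 with IGF-1. No groups overlapped between vehicle and ligand or between genotypes, with log2 fold changes of 0.43 and 0.43 in IRflox, 0.39 and 0.41 in IRKO, and -0.22, -0.25 and -0.23 between genotypes.

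Dnajb1 (HSP40), the stress-inducible J protein, was at 47.8, 45.4, 51.98 and 51.5 CPM with vehicle, 63.2, 62.4, 55.9 and 54.6 with insulin, and 54.1, 60.4, 59.5 and 59.2 with IGF-1 in IRflox. IRKO libraries held 40.1, 45.996, 45.001 and 39.6 CPM with vehicle, 45.05, 46.3, 48.1 and 49.2 with insulin, and 45.98, 47.1, 49.01 and 44.3 with IGF-1. IRflox libraries separated by treatment (log2 0.26 and 0.24), whereas IRKO libraries overlapped. There insulin gave 0.14 (edgeR adjusted p = 0.0434) and IGF-1 0.13 (adjusted p = 0.07). The insulin call in IRKO was lost with DESeq2 (0.13), with library size alone, with either other filter, in a fit of these groups alone, and without IRKO vehicle replicate 1 or 4 or IRKO insulin replicate 2, 3 or 4 (0.11 to 0.15). Between genotypes the log2 difference was -0.20, -0.32 and -0.32 with vehicle, insulin and IGF-1; the vehicle call was lost in a fit of those groups alone (-0.20) and without IRflox vehicle replicate 3 or 4 or IRKO vehicle replicate 1 or 4 (-0.19 to -0.17).

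Dnajb4 was lower in IRKO with IGF-1 (55.3, 59.9, 53.5 and 58.3 CPM, beside 67.7, 63.7, 76.8 and 68.3 CPM in IRflox; log2 -0.29) and with insulin (-0.24), without overlap in either case, and it rose with insulin in IRflox (0.17). Dnajb2 and Dnajb5 rose in all 4 ligand comparisons, by 0.35 and 0.14 for insulin in IRflox, and Dnaja2 rose with insulin in both genotypes (0.11 and 0.13) and was lower in IRKO with vehicle (-0.12). Dnajb6 fell with insulin in IRKO, from 122, 121, 115 and 124 CPM to 116, 106, 115 and 109.7 CPM, with overlapping libraries (log2 -0.11). That call was lost without IRKO vehicle replicate 1 or 4 or IRKO insulin replicate 2 or 4 (-0.11 to -0.09). Dnajb13 fell with IGF-1 in IRKO, from 11.3, 14.6, 11.6 and 10.3 CPM to 9.13, 10.4, 10.2 and 8.94 CPM (log2 -0.31). Libraries overlapped, and the call was lost without IRKO vehicle replicate 2 or IRKO IGF-1 replicate 1 or 4 (-0.28 to -0.20), and Dnaja4 was called in none.

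Small heat shock proteins are ATP-independent holdases. The 5 members counted in this class hardly responded to ligand, and their symbols do not show that each, Hspb11 among them, acts as a holdase. Of the 5, insulin raised only Hspb8 in each genotype, and IGF-1 raised none in IRflox and only Hspb8 in IRKO. Hspb8, which acts with BAG3 in chaperone-assisted autophagy, was at 177, 169.6, 184 and 181 CPM with vehicle, 202, 207, 198 and 201 with insulin, and 174, 189, 198 and 187 with IGF-1 in IRflox. Its IRKO levels were 139, 147, 149 and 158 CPM with vehicle, 176, 167, 188 and 174 with insulin, and 165, 169, 168 and 167 with IGF-1. Each IRKO group lay below the IRflox group of its treatment, with log2 differences of -0.26, -0.20 and -0.16. The call with IGF-1 was lost without IRflox IGF-1 replicate 3 (-0.13). With ligand the log2 fold change was 0.18 and 0.25 for insulin and 0.07 (edgeR adjusted p = 0.154) and 0.17 for IGF-1.

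Hspb1 (HSP25), another small heat shock protein, was low. In IRflox it was at 7.87, 5.69, 8.76 and 7.54 CPM with vehicle, 7.75, 6.55, 7.49 and 5.39 with insulin, and 5.42, 6.81, 7.18 and 5.82 with IGF-1. In IRKO the values were 3.89, 4.99, 4.05 and 6.09 CPM with vehicle, 4.24, 3.29, 5.89 and 3.06 with insulin, and 2.98, 4.99, 3.21 and 4.69 with IGF-1. IRKO libraries lay mostly below IRflox libraries, with overlap under vehicle and insulin. The log2 difference was -0.66 ± 0.17, -0.72 ± 0.18 and -0.68 ± 0.18 (edgeR adjusted p = 0.0107, 0.00605 and 0.0164), while ligand gave -0.15 to -0.27 without passing the test. The vehicle call was lost without IRflox vehicle replicate 3 or IRKO vehicle replicate 1 (-0.57 in each), and the IGF-1 call without IRflox IGF-1 replicate 3 or IRKO IGF-1 replicate 1 or 3 (-0.61 to -0.56). Hspb2, Hspb6 and Hspb11 were called in no comparison.

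In the class set up for the endoplasmic reticulum (10 members) the same 4 genes, Hspa5, Hsp90b1, Dnajc3 and Dnajb11, rose in all 4 ligand comparisons. Only Dnajc1 of this class differed between genotypes. The class may not hold every member of this compartment, and Dnajc16 and Dnajc25 are counted below with the other class C J proteins. Hspa5 (BiP) is the HSP70 of this compartment and the carrier of the stress element shown above. Its level in IRflox was 702, 706, 797 and 744 CPM with vehicle, 1267, 1218, 1257 and 1236 with insulin, and 1163, 1269.6, 1194 and 1158 with IGF-1. In IRKO it was at 729, 689, 711 and 711 CPM with vehicle, 1238, 1207, 1196 and 1185 with insulin, and 1216, 1214, 1206 and 1236 with IGF-1. Ligand libraries stood far above vehicle libraries, and the genotypes overlapped under each treatment. The log2 fold change was 0.75 ± 0.037 and 0.70 ± 0.037 in IRflox and 0.76 ± 0.037 and 0.78 ± 0.037 in IRKO (1.69-fold for insulin in IRflox, edgeR adjusted p = 1.65e-20), and IRKO against IRflox gave -0.05, -0.04 and 0.03 (adjusted p = 0.438, 0.504 and 0.769).

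Hsp90b1 (GRP94), the HSP90 of this compartment, was at 534, 546, 642 and 580.4 CPM with vehicle, 781, 716, 756 and 752 with insulin, and 698, 741, 709 and 713 with IGF-1 in IRflox. IRKO libraries held 579, 584, 583 and 592 CPM with vehicle, 756, 729.8, 729.9 and 732 with insulin, and 733, 743, 716 and 746 with IGF-1. The rise, separate from vehicle in each case, was 0.38, 0.31, 0.33 and 0.33 on the log2 scale, and the genotypes overlapped. Dnajc3 (P58IPK), a J protein and inhibitor of eIF2alpha kinases, was at 149, 142, 145 and 142 CPM with vehicle, 201, 188, 209 and 198 with insulin, and 191, 195, 192 and 188 with IGF-1 in IRflox. Its IRKO levels were 148, 139.7, 142 and 147 CPM with vehicle, 197, 204, 189.5 and 209.7 with insulin, and 207, 206, 202 and 203 with IGF-1. It rose by 0.46 and 0.41 in IRflox and 0.47 and 0.51 in IRKO without overlap, and Dnajb11 (ERdj3), a J protein that brings clients to BiP, rose by 0.41, 0.38, 0.46 and 0.49.

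Other J proteins of this class did not follow. Dnajb9 (ERdj4), a BiP partner that is itself a target of the unfolded protein response, was at 63.6, 62.9, 65.5 and 70.6 CPM with vehicle, 57.3, 60.5, 58.8 and 62.9 with insulin, and 53.4, 59.6, 58.5 and 53.9 with IGF-1 in IRflox. In IRKO the values were 63.4, 57.7, 57.4 and 59.4 CPM with vehicle, 56.4, 54.1, 55.5 and 54.4 with insulin, and 57.5, 61.4, 53.7 and 54.02 with IGF-1. In IRflox every ligand library lay below every vehicle library, though with insulin only narrowly, and the log2 fold change was -0.13 with insulin and -0.22 with IGF-1, but the insulin call was lost without IRflox vehicle replicate 4 or IRflox insulin replicate 1 (-0.11 and -0.12). In IRKO the values were -0.11 (libraries separate) and -0.07 (libraries overlapping), and neither passed the test. Dnajc1 (ERdj1), a membrane J protein, fell with both ligands and was lower in IRKO. It stood in IRflox at 198, 182, 204 and 203 CPM with vehicle, 154, 152, 174 and 159 with insulin, and 154, 155, 157 and 158 with IGF-1. In IRKO it was at 173, 166, 162 and 163 CPM with vehicle, 133, 136, 134 and 134 with insulin, and 137, 139, 139 and 136 with IGF-1. No ligand library reached its vehicle libraries, with log2 fold changes of -0.30, -0.34, -0.30 and -0.27, and the genotype difference was -0.25, -0.25 and -0.18. Dnajb12 was lower with IGF-1 in IRKO (-0.14), and Dnajb14, Dnajc10 and Hspa13 were called in none of these comparisons.

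Among the 9 mitochondrial members insulin raised 7 in IRflox and 6 in IRKO, IGF-1 raised 7 in each, Dnajc28 fell in all 4, and 1, 2 and 2 were lower in IRKO with vehicle, insulin and IGF-1. Hspd1 (HSP60) and Hspe1 (HSP10) form the mitochondrial chaperonin and share the promoter site shown above; 4.24% of the Hspd1 exon length and 7.60% of that of Hspe1 overlap each other on opposite strands, whose reads these libraries cannot separate. Hspd1 in IRflox was at 194, 202, 231 and 216 CPM with vehicle, 363, 356, 350.2 and 364 with insulin, and 358, 377, 381 and 412 with IGF-1. IRKO libraries held 209, 194, 193 and 194 CPM with vehicle, 321, 291, 305 and 318 with insulin, and 332, 339, 349.5 and 341 with IGF-1. It rose without overlap, by 0.76 ± 0.045 and 0.86 ± 0.044 in IRflox and 0.64 ± 0.045 and 0.78 ± 0.045 in IRKO (edgeR adjusted p = 5.73e-18 for insulin in IRflox). Genotypes overlapped with vehicle (-0.09) and did not with insulin (-0.21) or IGF-1 (-0.17), and the last call was lost without IRflox IGF-1 replicate 4 (-0.13).

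Hspe1 in IRflox was at 51.96, 54.8, 67.96 and 64.9 CPM with vehicle, 85.5, 86.6, 84.3 and 102 with insulin, and 103, 114, 97.7 and 98.2 with IGF-1. Its IRKO levels were 54.7, 49.2, 52.7 and 64.99 CPM with vehicle, 76.1, 73.7, 80.9 and 90.9 with insulin, and 97.9, 84.4, 92.9 and 95.02 with IGF-1. It rose by 0.58 and 0.78 in IRflox and by 0.54 and 0.74 in IRKO, with separate libraries, and its genotype differences of -0.12, -0.16 and -0.16 did not pass the test. Hspa9 (mortalin), the HSP70 that pulls precursors into the matrix, was at 384, 390.2, 406 and 389 CPM with vehicle, 501, 483, 477 and 513 with insulin, and 492, 518, 496 and 513 with IGF-1 in IRflox. In IRKO the values were 350.0, 340.4, 364 and 363 CPM with vehicle, 459.9, 449, 452 and 460.2 with insulin, and 467, 471, 457 and 469 with IGF-1. Vehicle and ligand groups were separate, as were the genotypes, with rises of 0.33, 0.36, 0.36 and 0.39 and genotype differences of -0.15, -0.12 and -0.12. The insulin difference was lost without IRflox replicate 4 or IRKO replicate 2 or 3 of that treatment and in a fit of those groups alone (-0.11 to -0.10), and the IGF-1 difference without IRflox replicate 2 or 4 or IRKO replicate 1, 3 or 4 (-0.12 to -0.11).

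The J proteins Dnaja3, Dnajc11 and Dnajc15 rose in all 4 ligand comparisons (0.34, 0.26 and 0.24 for insulin in IRflox), Dnajc19 rose in 3 of them, and Dnajc30 was not called. Dnajc28 was the member with the largest fall. In IRflox it was at 6.14, 8.70, 7.86 and 7.31 CPM with vehicle, 2.54, 3.06, 3.03 and 3.82 with insulin, and 3.29, 2.16, 3.48 and 2.16 with IGF-1. In IRKO it was at 7.83, 8.52, 7.84 and 8.14 CPM with vehicle, 3.92, 3.66, 3.57 and 4.80 with insulin, and 2.87, 2.56, 2.36 and 2.28 with IGF-1. No ligand library came near the vehicle libraries, with log2 fold changes of -1.26 ± 0.15 and -1.43 ± 0.16 in IRflox and -1.02 ± 0.14 and -1.68 ± 0.16 in IRKO, and the genotypes overlapped under each treatment.

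The 16 other class C J proteins, which act on varied partners, were mixed: insulin raised 2 and lowered 5 in IRflox and raised 2 and lowered 2 in IRKO, IGF-1 raised 7 and lowered 5 in IRflox and raised 6 and lowered 3 in IRKO, and 0, 1 and 0 were lower in IRKO with vehicle, insulin and IGF-1. Dnajc2 (MPP11 or zuotin), a J protein of the ribosome, and Dnajc25 rose in all 4 ligand comparisons, Dnajc2 by 0.47, 0.61, 0.38 and 0.44 and Dnajc25 by 0.50, 0.51, 0.33 and 0.52. Dnajc21, a factor of ribosome assembly, Dnajc7 and Dnajc27 rose with IGF-1 in both genotypes, Dnajc5 (cysteine string protein) and Dnajc24 with IGF-1 in IRflox, and Dnajc17 with IGF-1 in IRKO. Dnajc5 was the member lower in IRKO with insulin (-0.10), and Dnajc4 and Dnajc14 were called in none.

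The falls in this class were small or at low levels. Dnajc12 fell in IRflox from 4.13, 3.33, 3.34 and 4.05 CPM with vehicle to 3.21, 1.80, 2.72 and 2.92 CPM with insulin and 2.38, 2.50, 2.86 and 3.06 CPM with IGF-1, a log2 change of -0.48 and -0.46 without overlap. The insulin call was lost without IRflox vehicle replicate 1 or 4 or insulin replicate 2 (-0.45 to -0.33), and the IGF-1 call without vehicle replicate 1 or 4 or IGF-1 replicate 1 or 2 (-0.43 to -0.41) and with no expression filter (-0.46). Dnajc9, a histone chaperone, went in IRflox from 36.97, 34.03, 43.2 and 42.1 CPM to 35.1, 37.1, 32.1 and 32.7 CPM with insulin and 30.05, 36.1, 30.03 and 32.3 CPM with IGF-1 (-0.19 and -0.29, with overlap). In IRKO it went from 33.7, 31.7, 33.5 and 39.9 CPM to 31.97, 30.4, 31.3 and 25.5 CPM with IGF-1 (-0.22, with overlap). Its insulin call was lost without IRflox vehicle replicate 3 or 4 or insulin replicate 3 or 4 (-0.18 to -0.15), and its IGF-1 call in IRKO without IRKO vehicle or IGF-1 replicate 4 (-0.14 and -0.15).

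Dnajc16 fell with insulin in IRflox, from 57.6, 61.2, 53.04 and 55.2 CPM to 50.3, 45.2, 51.04 and 49.6 CPM without overlap (-0.21). Dnajc13 (RME-8), an endosomal J protein, fell in all 4 comparisons, by -0.11, -0.11, -0.15 and -0.15; with insulin in IRKO it went from 189, 174, 177 and 166 CPM to 151, 161, 152 and 173 CPM, with overlap. Dnajc8, a splicing-associated J protein, fell with both ligands in IRflox (-0.11 and -0.12). Dnajc18 fell with IGF-1 in IRflox, from 56.2, 54.1, 50.6 and 55.7 CPM to 41.1, 46.2, 48.8 and 51.1 CPM (-0.21), and in IRKO from 56.8, 62.6, 52.5 and 56.9 CPM to 54.4, 45.7, 53.1 and 46.7 CPM with insulin and 52.1, 46.02, 45.5 and 49.5 CPM with IGF-1 (-0.19 and -0.24). Only the IGF-1 libraries in IRKO were separate from vehicle. The IRflox call was lost without IGF-1 replicate 1 (-0.15), and the insulin call in IRKO without vehicle or insulin replicate 2 (-0.15 and -0.16). Hspbp1, a nucleotide exchange factor for HSP70, rose in all 4 comparisons (0.27 for insulin in IRflox). Hspbap1, named for its association with the small heat shock protein HSPB1, fell in IRKO from 10.5, 9.10, 10.9 and 9.63 CPM to 7.41, 6.63, 6.72 and 5.90 CPM with insulin and 6.49, 7.92, 7.99 and 7.21 CPM with IGF-1 (-0.59 and -0.44, without overlap). In IRflox its changes of -0.15 and -0.19 did not pass the test, and the difference in the insulin response had an unadjusted p of 0.0185 and an adjusted p of 0.884 in edgeR.

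Insulin and IGF-1, at the same dose and time, hardly differed. In IRflox edgeR called 0 members higher and 0 lower with insulin than with IGF-1 (1.49% and 1.1% of all genes), and DESeq2 called 0 and 0. At an unadjusted p under 0.05 edgeR put 2 higher and 4 lower, 9.5% of members beside 13.7% of all genes. In IRKO it put 4 higher and 4 lower at that unadjusted level, 12.7% of members beside 13.8% of all genes. After adjustment edgeR called 1 higher and 0 lower in IRKO (1.06% and 1.61% of all genes), and DESeq2 called 1 and 1. The called gene was Dnajc28, 3.92, 3.66, 3.57 and 4.80 CPM with insulin and 2.87, 2.56, 2.36 and 2.28 CPM with IGF-1, without overlap (0.66 ± 0.17, edgeR adjusted p = 0.0233). This call was lost without IRKO IGF-1 replicate 2, 3 or 4 or IRKO insulin replicate 1 or 4 (0.56 to 0.67). In IRflox the same difference was 0.17 ± 0.18 (adjusted p = 0.746). Hspe1 had the same sign in both genotypes without passing the test, at -0.20 in IRflox and -0.20 in IRKO (adjusted p = 0.153 and 0.155). Over the 63 members the differences between ligands ran from -0.20 to 0.25 in IRflox and from -0.22 to 0.66 in IRKO, with a median standard error of 0.05.

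Most members lower in IRKO under every treatment were cytosolic. Many of the 63 members are so to begin with: 10 cytosolic HSP70 and HSP110 genes, 2 cytosolic HSP90 genes, 9 class A and B J proteins and 5 small heat shock proteins. A difference between compartments was not tested. Under all 3 treatments 13 members were lower: Hspa8, Hsph1, Hspa1a, Hspa1b, Hspa4l, Hsp90aa1, Hsp90ab1, Dnaja1, Dnajb1, Hspb1, Hspb8, Hspa9 of mitochondria and Dnajc1 of the endoplasmic reticulum. Under at least 1 treatment 17 were lower, and under none 46. Of the 13, 8 also rose in all 4 ligand comparisons (Hspa8, Hsph1, Hspa1a, Hspa1b, Hsp90aa1, Hsp90ab1, Dnaja1 and Hspa9). IRKO comparisons under different treatments share no library, and the 14 lower with vehicle included 13 of the 16 with insulin and 13 of the 15 with IGF-1. The same overlap over all genes tested is not given here. Libraries of the 2 genotypes did not overlap for 14, 16 and 19 members lower in IRKO and for 0, 1 and 3 higher, whether called or not, beside 5.78%, 7.80% and 6.58% of all genes lower and 5.52%, 7.19% and 6.58% higher.

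Genes around the chaperones were read from lists that hold other members of the pathways. The list of HSF1-driven stress genes had 19 genes, 13 of them members, and was written with earlier results of these data known. Its counts therefore repeat those of the members in large part and are no separate support. Insulin and IGF-1 raised 17 and 14 of 19 in IRflox and 16 and 15 in IRKO, none fell, and 14, 16 and 13 were lower in IRKO with vehicle, insulin and IGF-1 (medians -0.19, -0.23 and -0.17, beside a median within 0.01 of 0 over all genes). Outside the members, Serpinh1 (HSP47), the collagen chaperone, was at 249, 245, 274 and 259.8 CPM with vehicle and 455, 441, 411 and 416 CPM with insulin in IRflox, and at 195, 217, 221 and 224 CPM and 379, 381, 352 and 361 CPM in IRKO. With insulin it rose by 0.74 in IRflox and 0.78 in IRKO, and it was lower in IRKO by -0.26 with vehicle and -0.23 with insulin. Its values with IGF-1, and calls of the other non-members of this list, are not given here. Of the heat shock factors and their regulators, 4 of 7 were tested. Hsf1 itself rose in all 4 ligand comparisons (0.26, 0.31, 0.32 and 0.33) and gave -0.01, 0.05 and 0.00 between genotypes, which did not pass (edgeR adjusted p = 0.921, 0.646 and 0.972).

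Of 26 tested cochaperones of HSP70 and HSP90, insulin raised 12 and lowered 4 in IRflox and raised 11 and lowered 2 in IRKO. IGF-1 raised 11 in each genotype and lowered 4 and 3, and 4, 4 and 3 were lower in IRKO. Over all genes tested, 24.3% to 26.9% rose and 21.4% to 25.1% fell with ligand. Between genotypes, 3.62% to 4.94% of all genes were higher and 3.15% to 5.53% lower in IRKO. The cochaperone medians with insulin and IGF-1 were 0.09 and 0.07 in IRflox and 0.07 and 0.07 in IRKO. Fkbp4, Ppid and Stip1 (HOP), which bind HSP90, rose by 0.55, 0.53 and 0.44 with insulin in IRflox. Of 28 rows of reticulum folding and unfolded protein response genes (27 symbols, since Ddit3 has 2 identifiers), insulin raised 19 and lowered 4 in IRflox. In IRKO it raised 17 and lowered 3, and IGF-1 raised 16 and lowered 5 in each genotype. The medians with insulin and IGF-1 were 0.22 and 0.19 in IRflox and 0.25 and 0.17 in IRKO. Hyou1, Manf and Xbp1 rose by 0.72, 0.78 and 0.68 with insulin in IRflox. IRKO had 1, 0 and 1 of these rows higher and 3, 2 and 0 lower, with Edem1 at 0.20 and Atf4 at -0.16 under vehicle. Of 14 genes of mitochondrial folding and proteolysis, insulin raised 7 and lowered 2 in each genotype, and IGF-1 raised 7 and 8 and lowered 2 and 2. The medians with insulin and IGF-1 were 0.11 and 0.12 in IRflox and 0.13 and 0.14 in IRKO. Between genotypes 0 of the 14 were called under each treatment. Timm50, a subunit of the inner membrane translocase, and Trap1, the mitochondrial HSP90, rose by 0.49 and 0.20 with insulin in IRflox, and Clpx, the unfoldase of the ClpXP protease, fell (-0.34).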

How the data were processed

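Polyadenylated RNA was sequenced as non-stranded paired-end libraries from 24 astrocyte samples, per the labels' protocols. The values are whole-number read counts per gene, deposited by the authors as 1 table per library. The submitters' processing notes name mm10, STAR 2.7.7a, edgeR, DESeq2 and R 4.0.4; which program counted the reads, and with which annotation, is not given in the sources used here. Reads not listed in the count tables as unique overlaps with genes were 14.5% to 23.2% of a library. Library sizes were the summed gene counts, which exceeded these overlaps (17245788 against 16439203 in IRflox vehicle replicate 1). Some reads may therefore have been counted for more than 1 gene, which bears on genes with shared exons.

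Genes were filtered with filterByExpr (minimum count 10, minimum total 15), scaled by TMM (factors 0.9824 to 1.018) and fitted with edgeR 4.0.16 in R 4.3.3 by glmQLFit, with 1 mean per group over all 24 libraries. Quasi-likelihood tests were run for 11 comparisons, adjusted by Benjamini-Hochberg over 15599 genes at 0.05. DESeq2 1.42.0, other filters and scalings, fits of the groups compared alone, a replicate block and leaving out each library were alternatives. The fit was tested on simulated data. RPKM is CPM per kilobase of union exon in GENCODE M21. CPM errors are SDs of 4 libraries, and ± after a log2 fold change is its standard error.

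The members and the gene lists were chosen with earlier results of these data known. Values in every library are given for 18 members set by name and for the 6 largest rises and falls among the members called in each comparison with vehicle or between genotypes; other members are given by role. From each pathway list up to 3 genes are named.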

Additional observations from a re-analysis of the deposited data

Results flagged for a closer look

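Within 6 of the 174 groups of 4 libraries examined (29 members in 6 groups), 1 library stood far from the other 3; chance alone would do so in about 1 of 20 groups. Hsp90ab1 in IRflox IGF-1 replicate 1 was at 1896 CPM, below the next library at 1967 CPM. Hsp90b1 in IRKO insulin replicate 1 was at 756.4 CPM, above the next at 732.3 CPM, and Dnajb13 in the same library was at 12.08 CPM, above 9.711 CPM. Hspd1 in IRKO vehicle replicate 1 was at 209.4 CPM, above 194.4 CPM. Hspe1 in IRflox insulin replicate 4 was at 102.2 CPM, above 86.56 CPM. Dnajc13 in IRflox vehicle replicate 1 was at 183.2 CPM, above 176.3 CPM.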

How the results depend on the processing

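Counts of called members stayed within 1.5 times of those reported except as follows. For insulin against IGF-1 in IRflox, 1 member was lower with no expression filter and in a fit of those groups alone (0 to 1 with a library left out). In IRKO the higher count was 0 among members with a mean of at least 5 CPM (0 to 1 with a library left out), and the lower count was 2 with no filter and in a fit of those groups alone and 1 with DESeq2 (0 to 1). In IRKO against IRflox with vehicle, 1 member was higher with library size alone and with no filter (0 to 1), and with insulin 0 to 1 with a library left out. Members lowered by insulin in IRflox numbered 5 to 9; the 5 came without IRflox vehicle replicate 4 or insulin replicate 1. The causes were not tested. Of 123 results for named genes, 20 lost their call under at least 1 alternative and 0 changed direction. Replicate numbers did not pair the libraries: 36 correlations of same-numbered libraries ran from -0.115 to 0.0503, with 0 over 0.1. With a replicate block, insulin raised 29 and lowered 8 members in IRflox and raised 30 and lowered 6 in IRKO, and 14, 16 and 15 were lower in IRKO. Depth limits low members such as Hspb2 and Dnajc12.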
